A study of Rattus norvegicus with 18 samples.

Results

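Collagen genes were taken as all genes whose rat symbol has the form Col, a number, a and a number, reached through the transcript accession of the array's probes that are not controls. A total of 23 such genes were on the array, of the 44 in the RefSeq table of rat genes, and they were measured by 31 probes. The other 21 had no probe matched by accession, the type IV chain Col4a2 among them, and were not analysed here. Of the 23 genes, 22 passed the filter on dim probes and were tested beside 13055 genes in all. The exception was Col14a1, which lay well above background on 11 of 18 arrays.

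Collagens are triple-helical proteins of the extracellular matrix, built from chains that are hydroxylated and folded in the endoplasmic reticulum and, for the fibrillar types, trimmed and cross-linked outside the cell. In the brain the fibrillar types I and III are found mainly in the meninges and around larger vessels, where fibroblasts make them. Type IV collagen forms the network of the vascular and pial basement membranes, and the multiplexins, types XV and XVIII, are linked to such membranes. Cartilage-type chains (types II, IX and XI) are best known from skeletal tissue.

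RNA came from the hypothalamus, dissected under a microscope, of 18 rats (male, Wistar, 9 weeks old), and each rat had its own array. The 6 control rats had no restraint and no wheel. The 6 stress rats were restrained for 1 to 1.5 h on 5 days a week during 3 weeks. The 6 rats of the stress with exercise group went through the same restraint and ran freely in a wheel for 4 weeks, starting 1 week ahead of the restraint. There was no group with exercise alone. The dissected piece holds many cell types, so fewer cells of a type and less RNA per cell cannot be told apart.

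A level here is the log2 of a probe's processed intensity minus the 75th percentile of its own array, so that 0 is that percentile. Levels of different probes, and so of different genes, are not comparable. Between 63.6% and 77.8% of 45598 probes lay well above background on an array. All 10 listed hypothalamic markers were tested, and their mean level ran from 3.15 to 3.67 over the rats. The arrays lay on 5 slides and were scanned on 2 days. Scan day 1 held control rats 3 to 6, stress rats 5 and 6 and exercised rats 1 and 2, and scan day 2 held the others. All control arrays and those of stress rats 1 to 4 were on slides 1 to 3, those of stress rats 5 and 6 and of all exercised rats were on slides 4 and 5, and control and stress arrays never shared a slide. Control and exercised rats therefore lay in different slide sets, so that batch and group cannot be told apart for that pair. For control and stress rats, slide and group cannot be told apart either. Correlations over rats are given within each slide set (10 and 8 arrays).

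The 23 genes comprised 8 fibrillar chains, 2 type IV chains, 2 multiplexins, 2 beaded filament chains of type VI, 4 FACIT chains (collagens that decorate fibrils), 1 short chain network collagen, 2 transmembrane collagens and 2 others. RefSeq promoter windows of assembly GRCr8, from 250 bases before to 50 bases after the annotated start, matched 18 of the 23 genes. Col1a1, Col2a1, Col3a1, Col6a2 and Col14a1 had no entry. The windows of Col1a2 and Col18a1 are shown because both genes varied together over the rats, and those of Col4a1 and Col11a2 because both passed a test between groups. Capitals mark every match, on either strand, to the TATA box TATAAA, the CCAAT box CCAAT or the GC box GGGCGG, with each window written 5′ to 3′ in the direction of the gene. The windows are chr4:33518307-33518606 on the plus strand, chr20:11473395-11473694 on the plus strand, chr16:84885347-84885646 on the plus strand and chr20:4817599-4817898 on the minus strand.
Col1a2: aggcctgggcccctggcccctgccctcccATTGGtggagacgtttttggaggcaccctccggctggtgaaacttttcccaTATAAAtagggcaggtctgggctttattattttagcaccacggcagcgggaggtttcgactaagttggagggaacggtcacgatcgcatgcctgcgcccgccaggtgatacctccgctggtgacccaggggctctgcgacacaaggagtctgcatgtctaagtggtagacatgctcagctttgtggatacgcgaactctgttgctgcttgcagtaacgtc
Col18a1: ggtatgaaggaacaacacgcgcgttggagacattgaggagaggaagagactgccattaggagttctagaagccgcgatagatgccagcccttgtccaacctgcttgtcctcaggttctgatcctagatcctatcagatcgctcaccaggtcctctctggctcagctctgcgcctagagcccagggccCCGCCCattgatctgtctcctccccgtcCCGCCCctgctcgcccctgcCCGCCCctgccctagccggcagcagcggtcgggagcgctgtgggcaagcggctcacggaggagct
Col4a1: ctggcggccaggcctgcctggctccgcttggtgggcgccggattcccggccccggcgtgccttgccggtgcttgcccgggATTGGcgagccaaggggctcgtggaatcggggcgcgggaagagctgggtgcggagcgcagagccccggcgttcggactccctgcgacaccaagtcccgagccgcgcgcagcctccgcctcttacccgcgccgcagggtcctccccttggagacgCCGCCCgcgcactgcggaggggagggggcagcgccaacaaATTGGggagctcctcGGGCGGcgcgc
Col11a2: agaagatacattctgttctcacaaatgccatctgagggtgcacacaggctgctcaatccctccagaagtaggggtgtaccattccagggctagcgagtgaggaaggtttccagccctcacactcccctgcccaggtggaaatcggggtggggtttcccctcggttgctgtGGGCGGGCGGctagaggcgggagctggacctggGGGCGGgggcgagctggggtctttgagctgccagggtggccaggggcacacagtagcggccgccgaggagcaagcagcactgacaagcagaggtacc

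Among these windows only that of Col1a2 held a TATA box, at -170 from the annotated start, and it held a CCAAT box at -221 and no GC box. The window of Col18a1 held 3 GC boxes at -63, -35 and -15. That of Col4a1 held CCAAT boxes at -170 and 24 and GC boxes at -16 and 39. That of Col11a2 held GC boxes at -80, -76 and -47, of which the first and the second overlap. Of the 18 collagen genes with a window, 2 held a TATA box (the other is Col13a1), 5 a CCAAT box and 10 a GC box. Over all 33469 promoter windows of the table the shares were 14.2%, 37.5% and 33.1%. A match describes the letters and says nothing of a factor's binding.

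Col1a2, the second chain of type I collagen, differed more between rats of 1 group than between groups. Its level was 2.73, 2.93, 1.50, 1.39, 3.27 and 2.85 in control rats 1 to 6. It was 3.22, 2.93, 2.43, 2.81, 1.34 and 1.62 in stress rats 1 to 6, and 3.03, 2.61, 1.85, 3.02, 2.39 and 1.94 in exercised rats 1 to 6. Control rats 3 and 4 and stress rats 5 and 6 were the 4 lowest, exercised rats 3 and 6 came next, and the 3 groups overlapped almost fully. The range over all 18 rats was 3.80-fold.

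Col1a1, the other type I chain, and Col3a1, the single chain of type III, followed the same rats. Col1a1 had a lowest, median and highest level of -0.47, 0.70 and 1.19 in control, -0.10, 0.54 and 1.29 in stress and 0.19, 0.64 and 1.29 in stress with exercise, a 3.38-fold range. Col3a1 had -2.28, -0.73 and -0.47 in control, -1.98, -0.90 and -0.36 in stress and -1.62, -0.98 and -0.34 in stress with exercise, a 3.83-fold range. For Col1a1, Col1a2, Col3a1, Col6a2 and Col13a1 alike, control rats 3 and 4 were the 2 lowest of control, stress rats 5 and 6 the 2 lowest of stress, and exercised rats 3 and 6 the 2 lowest of their group. Control rats 3 and 4 were the 2 lowest of control for 12 of the 22 tested collagens, stress rats 5 and 6 of stress for 5, and exercised rats 3 and 6 of theirs for 6. A second probe of Col1a1 followed the first over the arrays (r = 0.99 on slides 1 to 3 and 0.98 on slides 4 and 5).

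**Figure D1:**
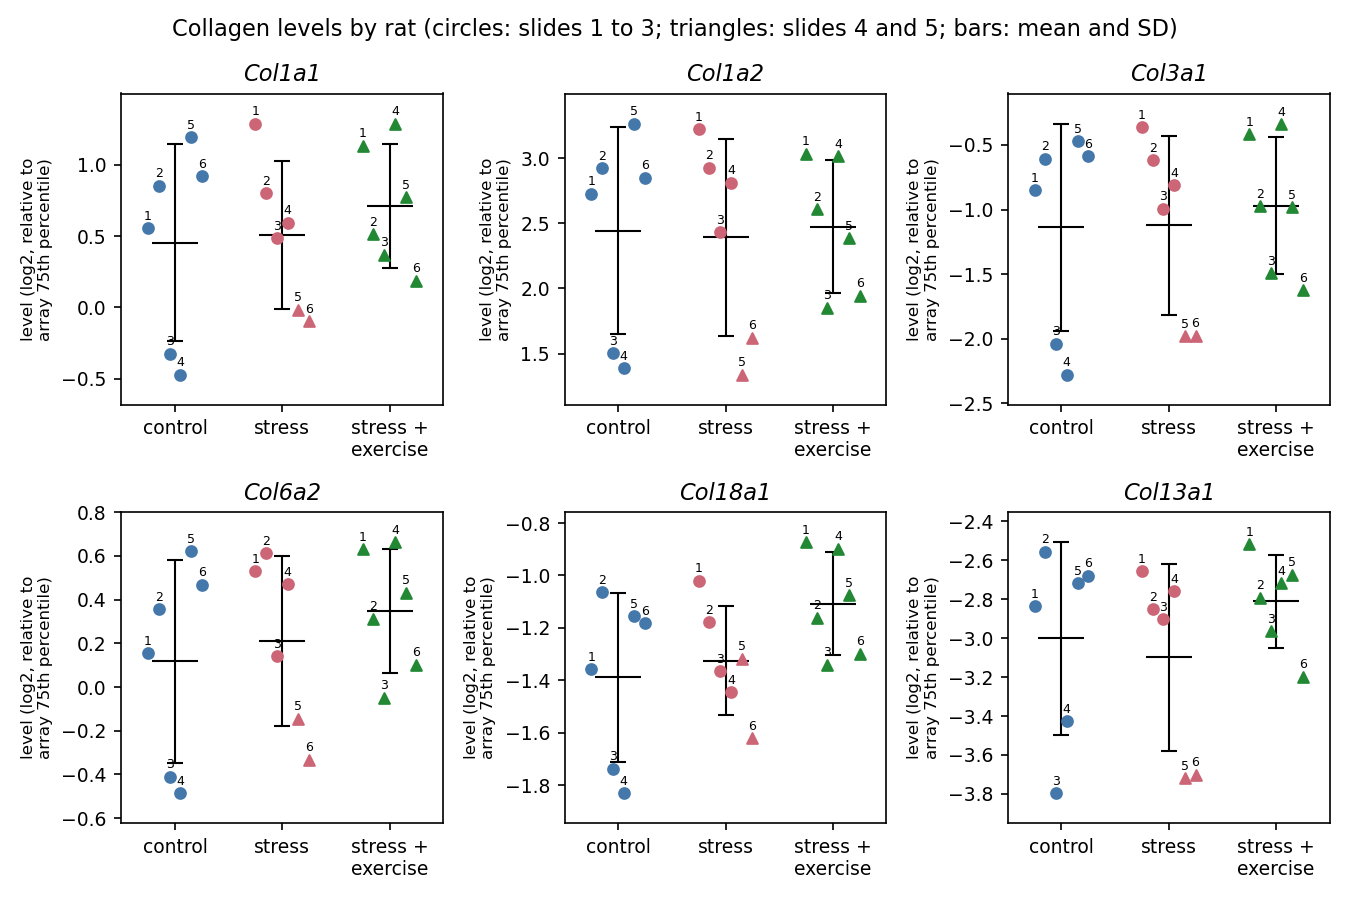
Levels (log2, relative to the array's 75th percentile) of 6 collagens, 1 point per rat with the rat's number, by group; circles are slides 1 to 3, triangles slides 4 and 5, and black bars the group mean and SD (n = 6). The low points of Col1a2 are control 3 (1.50) and 4 (1.39) and stress 5 (1.34) and 6 (1.62). The lowest exercised rats, 3 (1.85) and 6 (1.94), lie above these.

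The spread within groups was large against that of other genes. The within-group SD of the level was 0.70 for Col1a2, 0.69 for Col3a1 and 0.56 for Col1a1, at the percentiles 98.2, 98.1 and 96.5 of all 13055 genes, whose median SD was 0.11. Col4a1, a chain of the type IV network, had an SD of 0.11 (percentile 48.7), and Col5a3, a type V chain, one of 0.12 (percentile 51.1). The widest SD among the collagens, 0.84, was that of Col4a4, a dim type IV chain that was well above background on 6 of 6 control, 3 of 6 stress and 5 of 6 exercised arrays.

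The 4 arrays lowest for Col1a2 were arrays 1 and 2 of the 2 slides read on scan day 1 (slides 2 and 4), although arrays 1 and 2 of slide 3, stress rats 1 and 2, were among the highest. Whether array position or scan day had a part in these levels was not tested. Stress rats 5 and 6 (slide 4) could be set against stress rats 1 to 4 (slide 3) within 1 treatment group. In limma's fit 2 of 22 collagens passed there, or 9.09%, beside 16.5% of all genes (9.66% higher and 6.79% lower). Col13a1, a transmembrane collagen, was lower on slide 4 (difference -0.92, SE 0.27, adjusted p = 0.0294) and Col5a3 was higher (0.26, SE 0.08, adjusted p = 0.0323). Col1a2 differed by -1.37 (SE 0.48, adjusted p = 0.0617) and Col3a1 by -1.28 (SE 0.48, adjusted p = 0.0804), which did not pass. Neither call held without scaling, Col5a3 was also lost with quantile normalization, and with normexp background Col1a2 was the one that passed. Of all genes 7.35%, 14.2% and 17.005% passed in these fits, in that order.

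Several other collagens varied with types I and III. Against the mean of Col1a1, Col1a2 and Col3a1, Pearson r over the rats was 0.97 on slides 1 to 3 and 0.97 on slides 4 and 5 for Col6a2, a chain of the beaded filaments of type VI. It was 0.96 and 0.93 for Col18a1, the multiplexin whose end fragment is endostatin, and 0.92 and 0.91 for Col13a1. For Col5a1, a minor chain that helps start fibrils, r was 0.95 and 0.75, and for Col8a1, a short chain collagen of vessel walls, 0.74 and 0.86. The relation was thus present in both slide sets for chains of the fibrillar, beaded filament, multiplexin, transmembrane and short chain classes.

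The remaining collagens followed the type I and III mean less. Col26a1 had r of 0.87 and 0.36, Col23a1, a transmembrane collagen, 0.28 and 0.28, Col15a1, the other multiplexin, 0.50 and 0.02, and Col7a1, the anchoring fibril collagen, 0.54 and -0.46. For Col4a1, r was 0.41 and 0.17, for Col4a4 -0.20 and 0.02, for Col5a3 -0.17 and -0.27 and for the type VI chain Col6a5 -0.12 and -0.11. As the mean of both r, 6 collagens lay above 0.9, where 0.735% of all genes did (96 genes), and 8 lay above 0.7, where 2.39% did (312 genes). These counts include the 3 genes that make up the mean, and in every such correlation the 2 values of a rat come from the same array and RNA extract.

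Within the collagens, 2 sets stood out, both chosen after the values were seen and given without a test. Col1a1, Col1a2, Col3a1, Col5a1, Col6a2, Col13a1 and Col18a1 had a median pairwise r of 0.94 on slides 1 to 3 and 0.90 on slides 4 and 5 over 21 pairs. Col2a1, Col9a2, Col11a1, Col11a2 and Col16a1, of which Col16a1 is the one outside the cartilage types, had 0.90 and 0.92 over 10 pairs. Between the sets the median was 0.35 and -0.19 over 35 pairs, against 0.39 and 0.17 over all 231 pairs. Levels of the 2 sets were thus weakly related to each other, with opposite signs of the median in the 2 slide sets. The r among collagens are not given without the 2 rats farthest from the median collagen level. How far they rest on those rats was not tested. Of genes that are no collagen, the 6 most like the mean of the second set were Clasrp, Vwa5b2, Irf3, Lpin3, Carmil3 and Zcchc9 (mean r 0.96 to 0.98). Over all 13055 genes, a count that also covers the set's own members, 36 (0.276%) had a mean r above 0.9.

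**Figure D2:**
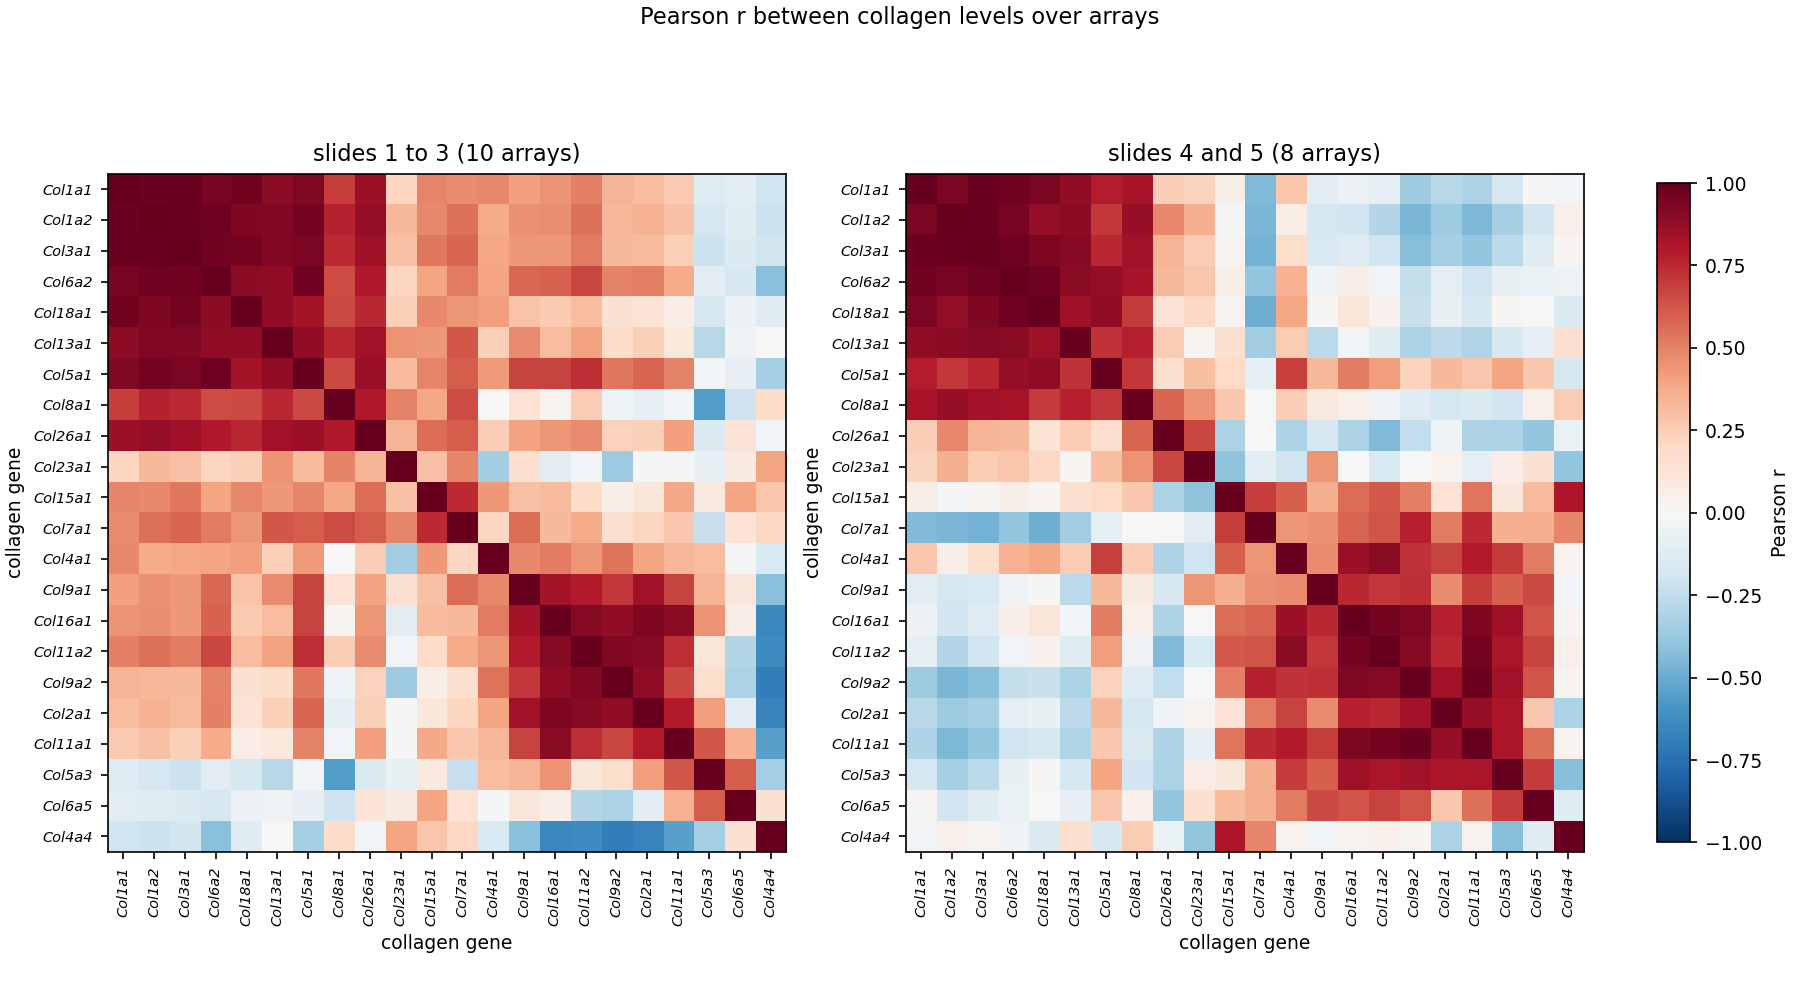
Pearson r between the levels of each pair of the 22 tested collagens, over the 10 arrays of slides 1 to 3 (left) and the 8 arrays of slides 4 and 5 (right); both axes list the genes and the colour bar gives r from -1 to 1. The block at the upper left holds Col1a1 to Col8a1, with a median r of 0.94 and 0.90 over its first 7 genes, and the block of Col16a1 to Col11a1 has 0.90 and 0.92.

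The 12 named genes outside the family whose pattern was most like the mean of Col1a1, Col1a2 and Col3a1 were Thbs2, Emp1, Ogn, Foxc1, Pcolce, Ifitm2, Bgn, Igf2, Slc6a13, Slc22a6, Itgbl1 and Emp3. Their r lay between 0.96 and 0.99 in each slide set, over 10 and 8 rats. Thbs2 encodes thrombospondin 2, Ogn and Bgn encode small leucine-rich proteoglycans, and Pcolce the enhancer of the protease that trims procollagen. Foxc1 encodes a transcription factor needed for meningeal development, Igf2 a growth factor, and Slc6a13 and Slc22a6 membrane transporters. Ogn, Foxc1, Bgn, Igf2, Slc6a13 and Slc22a6 were also on the marker list for fibroblasts.

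The marker list for meningeal and perivascular fibroblasts held 22 genes. Of these 20 were tested and 17 lay well above background on all 18 arrays. The list and its members were chosen with earlier results of these data known. Its mean level followed the mean of Col1a1, Col1a2 and Col3a1 with r = 0.98 (Spearman's rho 0.90) on slides 1 to 3 and 0.98 (rho 0.95) on slides 4 and 5. Without the 2 rats farthest from the median collagen level, r was 0.91 and 0.95. Over the single genes, 13 of 20 had a mean r above 0.9 and 19 of 20 above 0.7, where 0.735% and 2.39% of all genes did.

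The fibroblast marker mean ran from -1.86 to -0.31 in control, from -1.87 to -0.26 in stress and from -1.27 to -0.23 in stress with exercise, so its ranges overlapped as those of the collagens did. Foxc1 was at -0.44 and -0.52 in control rats 3 and 4 and between 0.27 and 0.47 in the other control rats. Slc6a13 was at -2.52 and -2.51 in the same rats and between -0.98 and -0.73 in the others. In stress rats 5 and 6 Slc6a13 was at -2.25 and -1.77, against -1.34 to -0.70 in stress rats 1 to 4. No gene of the list passed in any of the 3 comparisons. Of all genes 0% passed for stress against control, 3.28% for stress with exercise against stress and 28% for stress with exercise against control. The part of fibroblasts in the collagen levels was not tested.

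**Figure D3:**
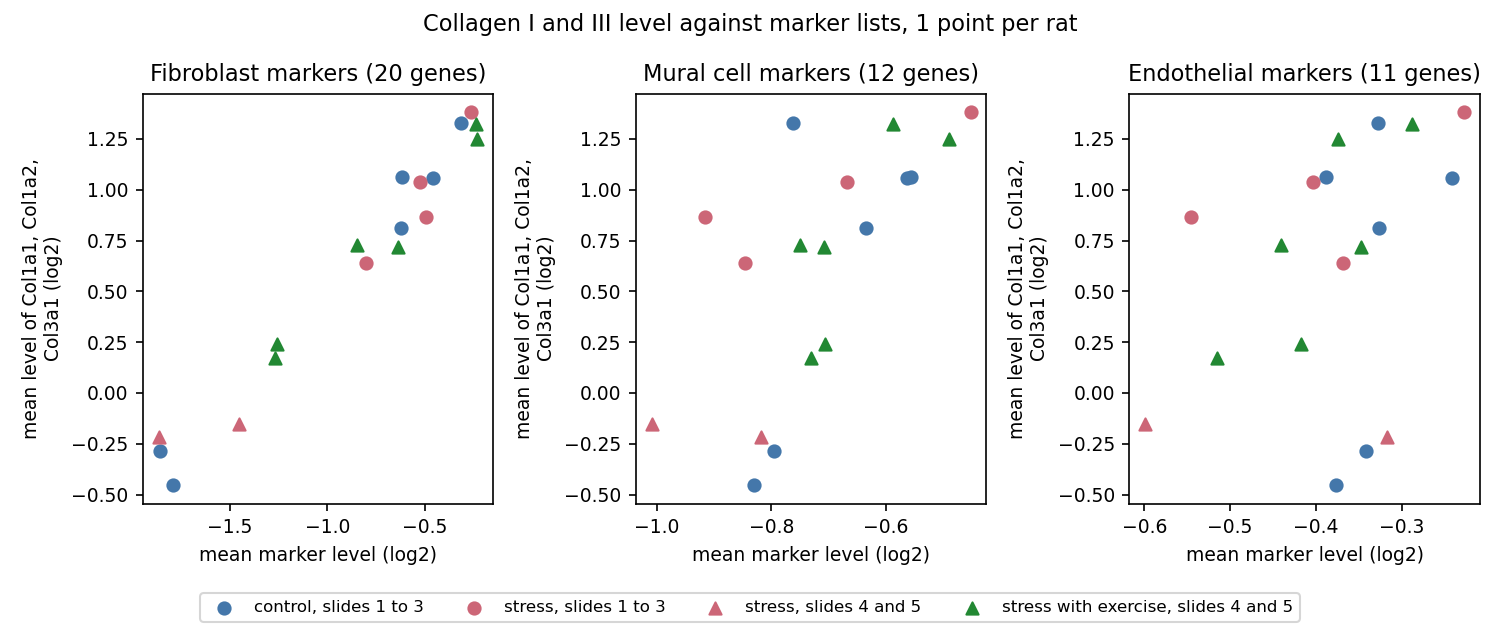
Mean level of Col1a1, Col1a2 and Col3a1 (vertical, log2) against the mean level of the fibroblast, mural cell and endothelial marker lists (horizontal, log2), 1 point per rat, coloured by group, with circles for slides 1 to 3 and triangles for slides 4 and 5. The points line up against the fibroblast list (r = 0.98 in each slide set) and scatter against the endothelial list (r = 0.20 and 0.52).

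Lists for mural, endothelial and choroid plexus cells had lower r with the collagens. The mean of the 12 mural cell markers had r of 0.55 on slides 1 to 3 and 0.84 on slides 4 and 5 with the mean of types I and III, that of 11 endothelial markers 0.20 and 0.52, and that of 8 choroid plexus markers 0.30 and 0.60. Without the 2 farthest rats of each slide set these were 0.57 and 0.64 for mural cells, 0.48 and 0.26 for endothelium and 0.78 and 0.72 for choroid plexus, so the choroid plexus list then followed the collagens more closely than the other 2. The hypothalamic list had -0.08 and -0.51, the thalamic list -0.25 and 0.02, the striatal list 0.50 and 0.55 and the list of oligodendrocyte precursors 0.16 and 0.17. Without the 2 farthest rats the hypothalamic list had 0.22 and 0.07, the thalamic list -0.25 and 0.22, the striatal list 0.33 and -0.29 and the precursor list 0.33 and -0.06, so several of these changed sign. The mean of 4 anterior pituitary markers had 0.89 and 0.89, and -0.12 and 0.91 without them. The ranges of the mural mean were -0.83 to -0.56 in control, -1.01 to -0.45 in stress and -0.75 to -0.49 in stress with exercise, and those of the endothelial mean were -0.39 to -0.24, -0.60 to -0.23 and -0.52 to -0.29.

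Cga, which encodes the alpha subunit shared by the glycoprotein hormones and is made in the pituitary, fell into 2 ranges, and was singled out after its values were seen. Its level was 4.31, 3.68, -1.80, -5.70, 3.32 and 4.70 in control rats 1 to 6, 4.29, 5.48, 5.05, 5.16, -6.52 and -5.50 in stress rats 1 to 6, and 3.38, 2.76, -5.50, 2.87, 3.91 and -4.03 in exercised rats 1 to 6. The 6 rats lowest for Cga were the 6 lowest for Col1a1, for Col1a2 and for Col3a1. Cga was well above background on 14 of 18 arrays. The other tested pituitary markers, Lhb, Fshb and Pou1f1, had mean r with the collagen mean of 0.38, -0.03 and -0.44, and the remaining 4 of the 8 listed markers did not pass the filter on dim probes. The mean of the 4 tested pituitary markers ran from -3.87 to -1.28 in control, from -4.03 to -1.01 in stress and from -3.97 to -1.79 in stress with exercise. The part of pituitary or meningeal tissue in these pieces was not tested.

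For single gene pairs, 5 collagens were set against 6 markers in both slide sets, 60 correlations in all, each with a two-sided permutation p (exact on slides 4 and 5) adjusted over the 60. Of them 25 passed on r, all positive, and 21 of these also passed on rho. The markers come from lists chosen with earlier results of these data known, and Slc6a13 was among the genes most like types I and III. Col1a1, Col1a2 and Col3a1 had r of 0.94 to 0.99 with one another, so these passes are not independent of each other. Dcn (decorin), Aldh1a2 (a retinoic acid-making enzyme) and Slc6a13 each passed on r with Col1a1, Col1a2, Col3a1 and Col18a1 in both slide sets, and none passed with Col4a1. The remaining pass was Col18a1 with the mural cell gene Pdgfrb on slides 4 and 5 (r = 0.85, rho = 0.74, exact permutation p = 0.0051 and 0.0458, adjusted p = 0.0139 and 0.115). On slides 1 to 3 Dcn passed on rho with Col1a2 alone (adjusted permutation p of rho 0.0792 for Col1a1 and Col3a1 and 0.178 for Col18a1), and without the 2 farthest rats its r with the 4 genes was 0.21 to 0.49, so those relations rest on these rats. Aldh1a2 and Slc6a13 passed on rho with all 4 genes in both slide sets, with r of 0.63 to 0.86 on slides 1 to 3 and 0.80 to 0.96 on slides 4 and 5 without the 2 farthest rats. Cldn5 of endothelial junctions and Ttr of the choroid plexus passed with none. Without the 2 farthest rats, Ttr had r of 0.60 to 0.74 with the 4 genes on slides 1 to 3 and 0.27 to 0.80 on slides 4 and 5. Cldn5 then had 0.08 to 0.63 and 0.20 to 0.53. The values of Ttr on slides 1 to 3 thus overlapped those of Aldh1a2 and Slc6a13.

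The closest pair was Col3a1 with Dcn on slides 4 and 5, with r = 0.98 (exact permutation p = 4.96e-05, adjusted p = 0.00185) and rho = 0.98 (exact permutation p = 0.000397, adjusted p = 0.00298). Col1a2 with Slc6a13 had r = 0.98 (permutation p = 0.00015, adjusted p = 0.00185) and rho = 0.88 (permutation p = 0.00166, adjusted p = 0.00788) on slides 1 to 3, and 0.86 without the 2 farthest rats. Col1a2 with Dcn had r = 0.92 (permutation p = 0.00344, adjusted p = 0.00983) and rho = 0.77 (permutation p = 0.0123, adjusted p = 0.0351) there, but 0.39 without those 2. Col4a1 with Dcn had r = 0.38 (permutation p = 0.282, adjusted p = 0.471) on slides 1 to 3 and 0.11 (exact permutation p = 0.788, adjusted p = 0.946) on slides 4 and 5, with rho of 0.47 (permutation p = 0.178, adjusted p = 0.315) and 0.17 (exact permutation p = 0.703, adjusted p = 0.827).

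Stress against control addresses the restraint without the wheel. Control and stress arrays never shared a slide, so restraint and slide cannot be told apart in this comparison. No collagen passed limma's test (0 of 22, beside 0% of all genes), and 1 had an unadjusted p under 0.05, or 4.55% beside 12.2% of all genes. Differences ran from -0.79 to 0.30, with 14 above 0 and 8 below, a median of 0.037 against 0.017 over all genes, and no collagen had groups that did not overlap (1.03% of all genes did). The count above 0 rested on single rats: it was 5 of 22 without control rat 3 (median -0.053) and 5 of 22 without control rat 4 (median -0.028). Col1a1 differed by 0.05 (SE 0.31), Col1a2 by -0.05 (SE 0.38), Col3a1 by 0.01 (SE 0.37), Col18a1 by 0.06 (SE 0.14) and Col4a1 by 0.03 (SE 0.07). Errors for types I and III were thus several times the differences.

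The 5 collagens with the smallest p for stress against control were Col6a5, Col9a2, Col4a4, Col11a2 and Col2a1. Col6a5 was at -3.51 ± 0.19 (SD, n = 6) in control and -3.90 ± 0.34 (SD, n = 6) in stress, and the difference was -0.39 (SE 0.15, adjusted p = 0.359), with 5 of 6 stress rats under the control mean. Col4a4 differed by -0.79 (SE 0.46, adjusted p = 0.493), Col9a2 by 0.24 (SE 0.12, adjusted p = 0.439), Col11a2 by 0.20 (SE 0.13, adjusted p = 0.554) and Col2a1 by 0.30 (SE 0.24, adjusted p = 0.631). None was distinguishable from the spread between rats.

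Stress with exercise against stress addresses the wheel in restrained rats. All 22 collagens had a difference above 0, as did 60.7% of all genes, and none passed (0 of 22, beside 3.28% of all genes, 1.6% higher and 1.68% lower). The differences ran from 0.04 to 0.64, with a median of 0.18 against 0.035 over all genes. An unadjusted p under 0.05 was reached by 4, or 18.2% beside 25.2% of all genes, and no collagen had groups that did not overlap (1.76% of all genes did). The count above 0 was 19 of 22 within slides 4 and 5, 17 within scan day 2 and 12 within scan day 1, with medians of 0.12, 0.19 and 0.038. Scan day 1 set stress rats 5 and 6 against exercised rats 1 and 2 alone. The count over all rats was 22. It was 21 with no scaling of the arrays.

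The 5 smallest p of that comparison belonged to Col4a1, Col6a5, Col5a3, Col15a1 and Col16a1. Col4a1 was at 0.23 ± 0.13 (SD, n = 6) in stress and 0.42 ± 0.10 (SD, n = 6) in stress with exercise, and the difference was 0.19 (SE 0.07, adjusted p = 0.0871). All 6 exercised rats exceeded the stress mean. Col5a3 was 0.18 higher (SE 0.07, adjusted p = 0.123) and Col16a1, a FACIT chain, 0.23 higher (SE 0.12, adjusted p = 0.267), each in 6 of 6 rats. Col6a5 differed by 0.42 (SE 0.15, adjusted p = 0.111) and Col15a1 by 0.27 (SE 0.12, adjusted p = 0.171), each in 5 of 6. The genes of types I and III had wider errors, with Col1a1 at 0.20 (SE 0.31), Col1a2 at 0.08 (SE 0.38) and Col3a1 at 0.15 (SE 0.37), and Col18a1 was at 0.22 (SE 0.14).

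Without stress rat 5, Col4a1, Col5a3 and Col6a5 passed, or 13.6% of the collagens beside 14.5% of all genes in the same fit. Without stress rat 6, 0 collagens passed beside 13.5% of all genes. Leaving out any other single rat gave 0 collagens, beside at most 1.09% of all genes. Within scan day 2, where stress rats 1 to 4 met exercised rats 3 to 6, 8 collagens passed, or 36.4% beside 24.4% of all genes: Col4a1, Col5a3, Col6a5, Col7a1, Col9a2, Col11a2, Col15a1 and Col16a1. These arrays came from different slide sets. Of these groups scan day 1 held only stress rats 5 and 6 and exercised rats 1 and 2, all on slide 4. There the direction turned for 4 of the 5 collagens with the smallest p, with Col4a1 at -0.020, Col5a3 at -0.046, Col6a5 at -0.19 and Col16a1 at -0.065. Within slides 4 and 5, where stress rats 5 and 6 met the exercised rats, 0 passed, beside 0% of all genes.

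Stress with exercise against control gave the only collagens past the threshold. They were Col4a1, Col9a2 and Col11a2, all higher with exercise, 3 of 22 or 13.6% beside 28% of all genes (18.1% in the higher direction). An unadjusted p under 0.05 was reached by 4, or 18.2% beside 40% of all genes. Of the 22 differences 20 lay above 0, as did 61.9% over all genes, with a median of 0.20 against 0.051. No collagen had groups that did not overlap, where 18.6% of all genes did. In the same comparison 5 of 9 striatal markers were higher (median 0.41), 4 of 8 oligodendrocyte precursor markers were higher and 1 lower (median 0.18), and 2 of 12 mural cell markers were higher and 2 lower (median 0.09). The part of these cells in the collagen differences was not tested.

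Col4a1 was at 0.09, 0.17, 0.23, 0.08, 0.23 and 0.37 in control rats 1 to 6 and at 0.31, 0.29, 0.40, 0.48, 0.54 and 0.48 in exercised rats 1 to 6. Only control rat 6 reached into the exercised range. The difference was 0.22 (SE 0.07, adjusted p = 0.0171), or 1.17-fold, and 6 of 6 exercised rats lay above the control mean. The difference was 0.23 (adjusted p = 0.0148) with the fibroblast marker mean as a covariate, in a fit where 32.5% of all genes passed. The part of fibroblasts in its difference was not tested. Over the rats of slides 1 to 3 and of slides 4 and 5, Col4a1 had r of 0.41 and 0.17 with the mean of types I and III. It had 0.44 and 0.90 with Col11a2 and 0.55 and 0.72 with Col9a2. Col9a2 and Col11a2 had 0.93 and 0.92 with each other, so the 3 calls are not independent. With the slide set as a covariate the difference was 0.08 (adjusted p = 0.886). Only the stress group spans both slide sets, so such an estimate leans on its rats, of which only rats 5 and 6 lay on slides 4 and 5.

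Col9a2, a chain of the FACIT collagen IX, had a lowest, median and highest level of 0.84, 1.02 and 1.30 in control, 1.08, 1.27 and 1.64 in stress and 1.20, 1.47 and 1.94 in stress with exercise. The difference from control was 0.44 (SE 0.12, adjusted p = 0.0143), or 1.35-fold, with 6 of 6 exercised rats above the control mean. It was 0.15 (adjusted p = 0.884) with the slide set as a covariate. Within scan day 1, with control rats 3 to 6 and exercised rats 1 and 2, it was 0.085. Within scan day 2, with control rats 1 and 2 and exercised rats 3 to 6, it was 0.75. Each day thus had few rats in 1 of the groups, and whether the days differ was not tested.

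Col11a2, a chain of type XI, had 1.71, 1.83 and 2.15 in control, 1.86, 1.99 and 2.47 in stress and 1.94, 2.33 and 2.61 in stress with exercise. The difference from control was 0.37 (SE 0.13, adjusted p = 0.0434), or 1.29-fold, with 6 of 6 exercised rats above the control mean. It lost the call without control rat 1, 2, 3 or 4, stress rat 2, or exercised rat 3, 4, 5 or 6, with adjusted p between 0.0506 and 0.1. None of the 3 genes passed with no scaling of the arrays, with slide as a random block, with the slide set as a covariate or within scan day 1. Of all genes 12.9%, 4.23%, 0.00766% and 17.25% passed in these fits, in that order. A dimmer probe of Col11a2 differed by 0.32 (adjusted p = 0.475) and followed the brighter one weakly (r = 0.11 and 0.37).

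**Figure D4:**
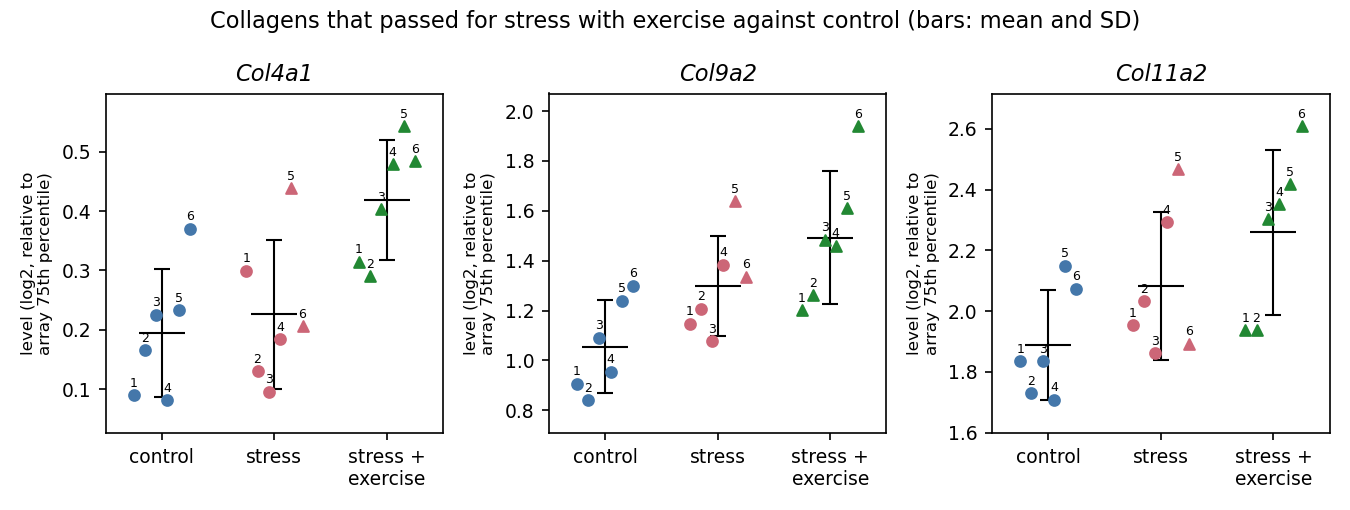
Levels (log2, relative to the array's 75th percentile) of Col4a1, Col9a2 and Col11a2, 1 point per rat with the rat's number, by group; circles are slides 1 to 3, triangles slides 4 and 5, and black bars the group mean and SD (n = 6). All 6 exercised rats lie above the control mean for each gene, and all of them are triangles while all control rats are circles.

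The other collagens did not pass against control. Col16a1 narrowly missed the threshold, 0.33 higher (SE 0.12, adjusted p = 0.0536) in 6 of 6 rats. Col18a1 was at -1.39 ± 0.32 in control and -1.11 ± 0.20 with exercise (SD, n = 6 each), a difference of 0.28 (SE 0.14, adjusted p = 0.146). Col1a1 differed by 0.26 (SE 0.31, adjusted p = 0.576), Col1a2 by 0.03 (SE 0.38, adjusted p = 0.965) and Col3a1 by 0.17 (SE 0.37, adjusted p = 0.780). Within scan day 2 Col1a2 was at -0.53 and Col3a1 at -0.38, and with the fibroblast marker mean as a covariate Col3a1 was at -0.052 and Col1a2 passed in the lower direction (-0.19, adjusted p = 0.00958). The 2 comparisons with the exercised rats share those rats, and the 2 with stress rats share those, so their values are not independent.

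**Figure D5:**
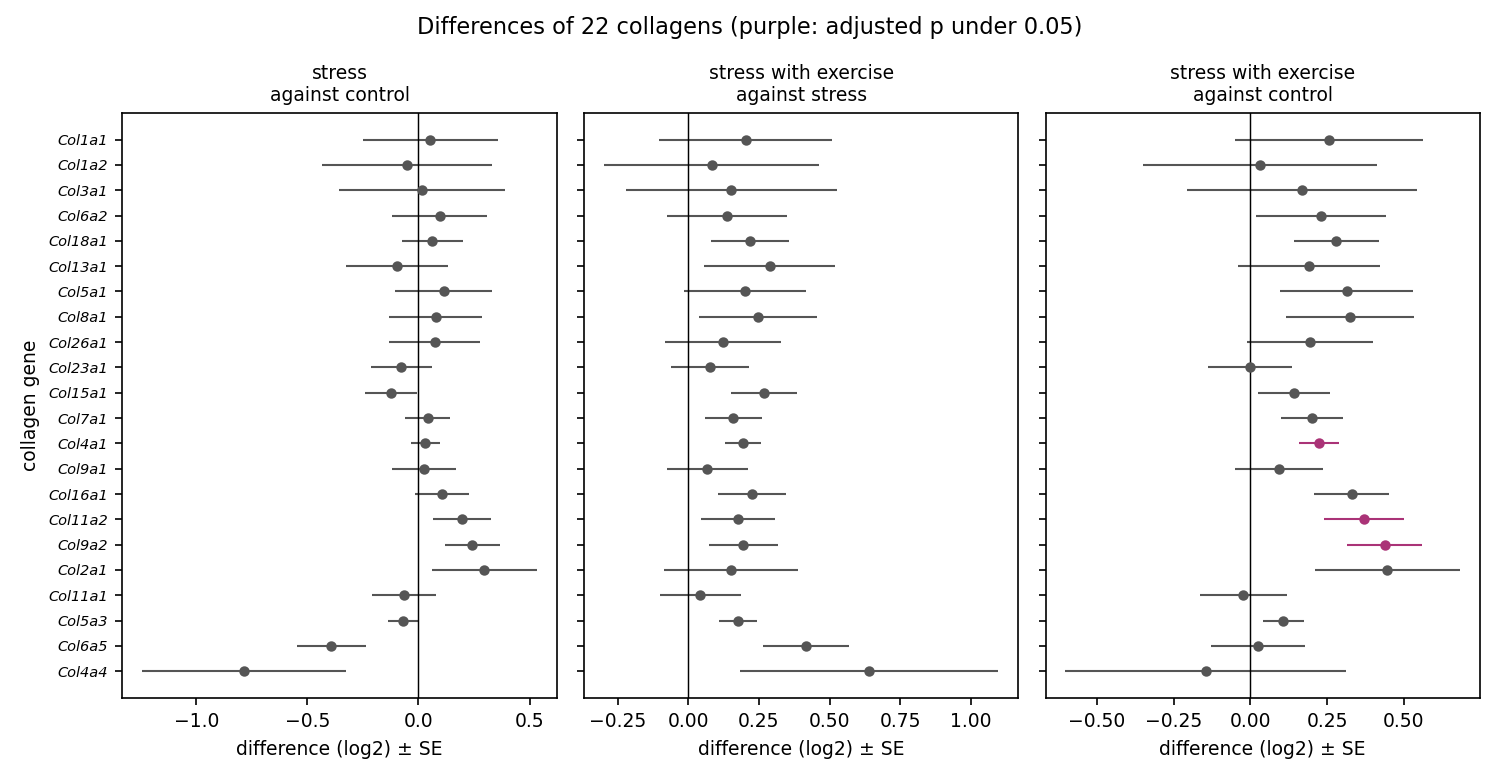
Difference in level (log2, horizontal) of the 22 tested collagens in 3 comparisons, with bars for the SE of limma's fit; purple points have an adjusted p under 0.05. Points straddle 0 for stress against control (14 above, 8 below, and 5 above without control rat 3 or without control rat 4), all 22 lie above 0 for stress with exercise against stress, and Col4a1, Col9a2 and Col11a2 are purple for stress with exercise against control.

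The dimmer or less variable members add their levels over the 18 rats. Col2a1, the main cartilage chain, ran from -2.21 to -0.74, Col11a1 from -1.38 to -0.54, Col5a1 from -2.23 to -0.87, Col5a3 from 1.03 to 1.46 and Col16a1 from 1.79 to 2.66. Col6a2 ran from -0.49 to 0.66, Col6a5 from -4.32 to -3.18, Col13a1 from -3.80 to -2.52, Col15a1 from -1.69 to -0.87, Col18a1 from -1.83 to -0.87 and Col23a1 from -3.94 to -3.15. Col7a1 ran from -3.78 to -3.15, Col8a1 from -4.37 to -2.92, Col9a1 from -4.43 to -3.66, Col26a1 from -4.15 to -2.87, Col4a4 from -6.61 to -3.14 and the untested Col14a1 from -6.65 to -3.88. For Col9a1, Col26a1 and Col6a2 a second probe followed the brighter one with r of at most 0.61 in either slide set, so their values depend on the probe.

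Enzymes and partners of collagen were given by 3 lists. Of the 22 tested genes of collagen synthesis and processing, 7 were higher with exercise than in control and 0 lower, beside 18.1% and 9.84% of all genes; the median difference of the list was 0.08. The 4 largest were P3h3 (a family member of the prolyl 3-hydroxylases, 0.54, adjusted p = 0.0340), Bmp1 (the protease that trims procollagens, 0.33, adjusted p = 0.00377), Colgalt1 (a collagen galactosyltransferase, 0.28, adjusted p = 0.00129) and P3h4 (0.25, adjusted p = 0.00272). Pcolce, at -0.02 (adjusted p = 0.962), and the collagen chaperone gene Serpinh1, at 0.08 (adjusted p = 0.329), did not pass. None of the 22 passed in the other 2 comparisons, where the smallest p belonged to Colgalt1 and Plod1 for stress against control (0.13 and 0.09) and to P3h4 and P4ha2 for stress with exercise against stress (0.17 and 0.13).

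Of 14 tested receptors and turnover genes, 3 were higher with exercise than in control and 0 lower, beside 18.1% and 9.84% of all genes. The list median was 0.01. The higher genes were Ddr1, a collagen-binding receptor kinase (0.41, adjusted p = 0.0270), and the metalloproteinase inhibitors Timp3 (0.28, adjusted p = 0.0298) and Timp4 (0.15, adjusted p = 0.0401). None passed in the other comparisons, where Mmp14, a membrane collagenase, was at -0.33 and Timp2 at 0.05 for stress against control, and Timp3 at 0.27 and Ddr1 at 0.32 for stress with exercise against stress. Of 10 basement membrane partners 1 was higher than in control and 0 lower, beside the same shares of all genes. It was Lama5, a laminin chain (0.22, adjusted p = 0.0194), and the list median was 0.14. Again none passed in the others, with Lamc3 at -0.12 and Agrn at 0.10 for stress against control and Lamc3 at 0.22 and Lama5 at 0.16 for stress with exercise against stress. With the slide set as a covariate 1 of 13055 genes passed for stress with exercise against control, and no collagen.

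Over the rats, the receptor and turnover mean followed types I and III with r of 0.97 and 0.95, with Ctsk, a collagen-degrading cathepsin, at 0.99 and 0.95 and Mrc2, an uptake receptor for collagen, at 0.87 and 0.95. The synthesis list had 0.83 and 0.87 and the basement membrane partners 0.67 and 0.93. On slides 1 to 3 these last 2 became -0.12 and -0.30 without the 2 farthest rats, so there the relation rests on them. Pcolce (0.98 and 0.98) and Fn1, fibronectin (0.95 and 0.97), followed the collagens closely as single genes, whereas P4ha1 of prolyl hydroxylation (0.03 and -0.24) did not.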

How the data were processed

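Total RNA was labelled with Cy3 and hybridised to 1-colour Agilent rat arrays, 1 per rat. The labels give 100 ng of RNA in one place and 200 ng in another. The intensity used is the processed signal of each deposited array file, which Feature Extraction had corrected for background, per the file headers. Those headers name version 12.1.0.3 and the submitters' processing notes 9.1. The intensities of the authors' series matrix equal that signal times 1 constant per array.

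From these values log2 was taken, the 75th percentile of the array's 45598 probes that are not controls was subtracted, and spots of a probe were averaged without outlier and control spots. A probe was tested if well above background on at least 5 of 6 arrays of a group (31299 probes). Names came from RefSeq through transcript accessions: 21220 probes had 1 symbol, 0 several and 24378 none. A gene is its brightest tested probe. The design build of the probes, rn4, is not that of RefSeq's table (GRCr8), so coordinates are those of RefSeq promoters only.

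Groups came from the sample titles. limma 3.58.1 (lmFit, eBayes, R 4.3.3) was fitted on all 18 arrays with group as the term and was tested on simulated data. Two-sided p-values were adjusted after Benjamini and Hochberg across the tested probes of a comparison, and a probe passed under 0.05. The rats are separate animals, and their number limits the precision.

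Named in full were Col1a1, Col1a2, Col3a1, Col4a1, Col18a1, the collagens that passed (else the 5 with the smallest p), per other list up to 4 that passed (else 2), and the 12 genes most like types I and III. Members and lists were chosen with earlier results of these data known. Gene pairs were tested with 100000 permutations, or all 40320 for 8 arrays. Alternatives were quantile normalization, no scaling, normexp background (run on median signals, as no mean signal was in the files), series matrix values, other probe filters, the mean of a gene's probes, slide, slide set, scan day or replicate number in the fit, single batches and leaving out each rat. The fibroblast marker mean as a covariate was added after seeing the data. A replicate number is only a name here: same-numbered rats did not deviate together (r from -0.25 to 0.18).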

Additional observations from a re-analysis of the deposited data

Results flagged for a closer look

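Of 69 groups of 6 levels (23 collagens in 3 groups), 2 held a rat far from the other 5, where chance gives about 1 in 20 groups. Col15a1 was at -1.40 in exercised rat 1 and between -1.04 and -0.88 in the other exercised rats, and the gap to the nearest was 0.686 of the group's range, above Dixon's critical share for 6 values. Col26a1 was at -3.80 in exercised rat 3 and between -3.17 and -3.05 in the others, a gap of 0.839 of the range.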

How the results depend on the processing

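Counts of collagens past the threshold changed most with how slides and days entered the fit. For stress with exercise against control, 3 passed in the chosen fit (13.6% beside 28% of all genes). The count was 0 with no scaling (beside 12.9% of all genes) and 0 with slide as a random block (beside 4.23%). It was also 0 with the slide set as a covariate (beside 0.00766%) and 0 within scan day 1 (beside 17.25%). It was 5 within scan day 2 (22.7% beside 17.97% of all genes), and 2 to 4 without single rats (9.09% to 18.2% beside 24.2% to 29.3%). Col4a1 and Col9a2 passed in each of the 28 other alternatives, and Col11a2 in 14 of 32. Among these, the fits without a stress rat could change only the error and the adjusted p, not the difference between exercised and control rats. For stress with exercise against stress, 8 passed within scan day 2 (36.4% beside 24.4%) and 0 to 3 without single rats, the 3 without stress rat 5 (13.6% beside 14.5%). The counts of 0 stood beside 13.5% of all genes without stress rat 6 and at most 1.09% without any other rat. For stress against control, 0 passed in every alternative, beside 10.6% of all genes within scan day 1 and at most 1.06% in any other. For stress rats of slide 4 against those of slide 3, 1 passed with quantile normalization (4.55% beside 14.2% of all genes). In that comparison 1 passed with normexp background (4.55% beside 17.005%) and 0 with no scaling (beside 7.35%). The 25 gene pairs numbered 25 in each of the 4 alternatives tried (quantile normalization, no scaling, normexp background and the mean of a gene's probes). The replicate number as a block gave 5 for stress with exercise against control (22.7% beside 23.7%, adding Col2a1 and Col16a1) and changed no other count, and the numbers do not pair the rats. Without scaling, 13.97% of the probes that passed for stress with exercise against control were higher, against 49.18% with it. The fibroblast marker mean as a covariate gave 4 (18.2% beside 32.5%), adding Col1a2 at -0.19.

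Some directions turned, and the cause was not tested. For stress against control, Col1a1 was at -0.054 as the mean of its probes, -0.13 with slide as a random block, -0.063 with scan day as a block and -0.39 within scan day 1. Col1a2 was at 0.41 with the slide set as a covariate and within slides 1 to 3, and 0.023 within scan day 2. Col3a1 was at -0.30 with slide as a random block, -0.15 with scan day as a block, -0.64 within scan day 1 and -0.034 with the fibroblast covariate. Col18a1 was at -0.016 with slide as a random block and -0.042 within scan day 2, Col4a1 at -0.017 with the slide set and within slides 1 to 3, and Col11a2 at -0.023 as the mean of its probes. For stress with exercise against stress, within scan day 2 Col1a1 was at -0.14, Col1a2 at -0.55 and Col3a1 at -0.41, within scan day 1 Col4a1 was at -0.020, Col5a3 at -0.046, Col6a5 at -0.19 and Col16a1 at -0.065, and with the fibroblast covariate Col1a2 was at -0.094 and Col3a1 at -0.018. For stress with exercise against control, within scan day 2 Col1a1 was at -0.049, Col1a2 at -0.53 and Col3a1 at -0.38, within scan day 1 Col11a2 was at -0.0050, with the fibroblast covariate Col1a2 was at -0.19 and Col3a1 at -0.052, and Col1a2 was at -0.023 with no scaling and -0.13 with scan day as a block.

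Without single rats, the range for stress against control was -0.13 to 0.20 for Col1a1, -0.26 to 0.16 for Col1a2, -0.21 to 0.19 for Col3a1, -0.011 to 0.067 for Col4a1 and -0.025 to 0.13 for Col18a1. For stress with exercise against stress it was -0.13 to 0.25 for Col1a2 and -0.019 to 0.31 for Col3a1, and against control -0.18 to 0.20 for Col1a2 and -0.060 to 0.30 for Col3a1. Dim probes such as Col4a4 and Col14a1 lie near background, so their folds are uncertain.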
